A study of Mus musculus with 6 samples.

Results

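The Hox genes of the mouse Hoxa, Hoxb, Hoxc and Hoxd clusters were examined in cultured calvarial preosteoblasts. All rows of the expression table whose symbol was Hoxa, Hoxb, Hoxc or Hoxd followed by a number were taken, whatever their level. This gave 21 rows of the 17001 in the table. The GENCODE M21 annotation of GRCm38 holds 39 such genes, and the other 18 were not analysed here. RNA was sequenced from preosteoblasts of 3-day-old mice, in 6 libraries. The genotype was Nell2 fx/fx in 3 of them (control) and Col1-cre; Nell2 fx/fx in the other 3 (cKO). All 6 libraries therefore carry the floxed Nell2 allele, and the groups differ by the Col1-cre transgene, which is active in the osteoblast lineage and not in every cell of a calvarial culture. The cells were grown in α-MEM with 10% serum. Whether libraries came from separate animals or litters is not given in the labels. Each group held libraries with and without RNA from the Y chromosome, so its 3 libraries did not all come from the same animal. The p-values measure the spread between these libraries, which may be technical in part.

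Hox genes encode homeodomain transcription factors that record the position of a cell along the body axis. Within a cluster the genes lie in the order of their paralogue number, and genes with low numbers are used further forward in the embryo than genes with high numbers. Fibroblasts and skeletal cells are known to keep such a pattern in culture. The neural crest that builds the front of the skull roof comes from a part of the head regarded as free of Hox expression, whereas crest of the second and later pharyngeal arches carries low-numbered Hox genes.

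Levels are given as FPKM, a fragment number divided by transcript length and by the mapped fragments of the library, which can be compared between genes of different length. FPKM does not carry read numbers, so no counting error or detection floor can be given. The FPKM sum of a library was between 573307 and 606428. The osteoblast lineage markers were present, with a mean FPKM over the 6 libraries of 12.6 for Runx2, 13.5 for Sp7 and 8273 for Col1a1. For Nell2, the targeted gene, the controls stood at 3.17, 2.59 and 1.88 FPKM (replicates 1, 2 and 3). The libraries labelled cKO stood at 5.64, 1.61 and 5.74 FPKM. The group means were 2.55 ± 0.646 and 4.33 ± 2.36 (SD, n = 3 each). Nell2 was thus not lower under the cKO label. A gene-level value does not separate the floxed part from the rest of the transcript, and every direction below refers to the label alone.

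Hox expression in these cells was low and lay mostly in the low-numbered paralogues, apart from Hoxd8, the highest member. Of the 21 members, 7 had a mean FPKM of at least 1 over the 6 libraries, namely Hoxd8, Hoxb2, Hoxa2, Hoxb3, Hoxd3, Hoxd4 and Hoxa3. A further 6 had a mean between 0.1 and 1, and 8 had a mean under 0.1. By position class, 5 of the 7 anterior members (paralogues 1 to 3) reached a mean of 1, against 2 of the 9 central members (paralogues 4 to 8) and 0 of the 5 posterior members (paralogues 9 to 13). The annotation holds 8 anterior, 15 central and 16 posterior genes, so the posterior class was the least covered. The anterior members held 51.8% of the summed Hox FPKM, the central members 44.9% and the posterior members 3.30%, as means over the 6 libraries. By cluster, Hoxd held 49.2%, Hoxb 29.3%, Hoxa 21.2% and Hoxc 0.230% of that sum. The members covered 6 of 9 annotated genes of Hoxd, 6 of 10 of Hoxb, 6 of 11 of Hoxa and 3 of 9 of Hoxc. Levels were modest beside other genes, since the median row of the table had a mean FPKM of 4.74 and only Hoxd8 lay above it.

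**Figure D1:**
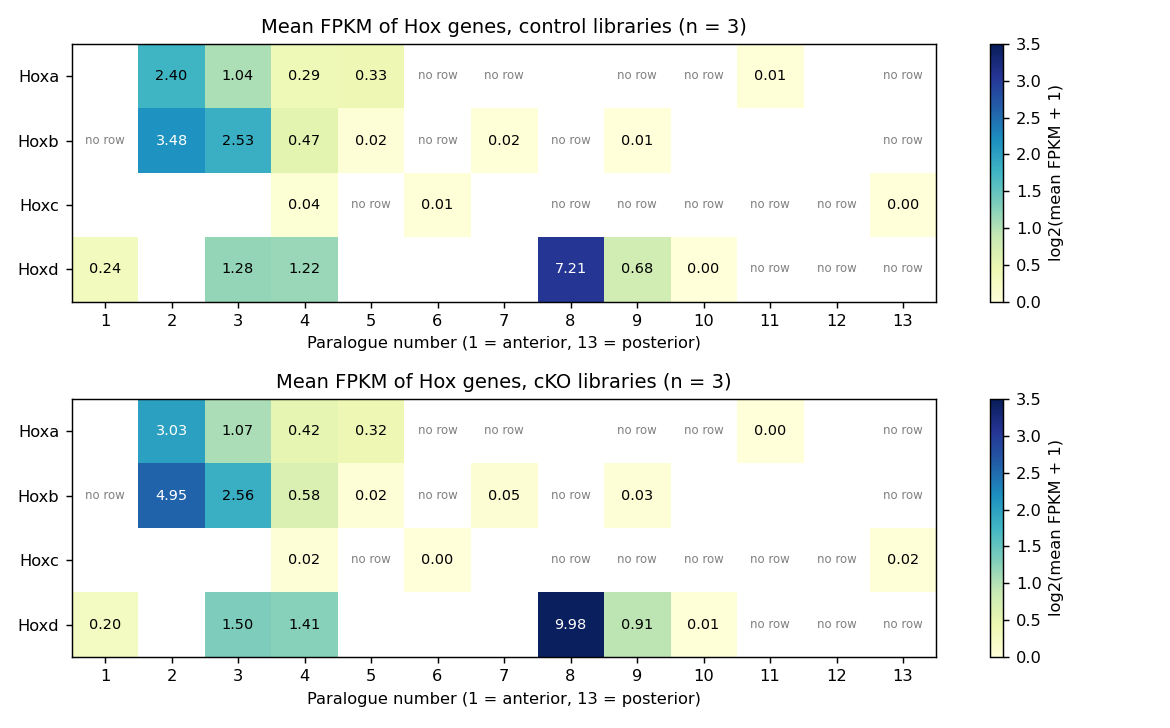
Mean FPKM of Hox genes by cluster (vertical axis) and paralogue number (horizontal axis) in the 3 control libraries (top) and the 3 libraries labelled cKO (bottom), with colour on the log2(mean FPKM + 1) scale, "no row" for annotated genes not analysed here and blank cells where the mouse has no such gene or its value is not reported here. The cells above 0.1 lie at paralogues 2 to 5 of Hoxa, 2 to 4 of Hoxb and 1 to 9 of Hoxd in both groups, with the darkest cell at Hoxd8, 7.21 in control and 9.98 in cKO libraries.

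The Hoxd cluster, which spans 74668310 to 74765142 of chromosome 2 in GRCm38 (plus strand), had the highest sum. Its main gene was Hoxd8, a central paralogue of the developing trunk. The FPKM of Hoxd8 was 6.1, 5.32 and 10.21 in control replicates 1, 2 and 3. The values for cKO replicates 1, 2 and 3 were 12.57, 6.71 and 10.66. The groups overlapped, since control replicate 3 lay above cKO replicate 2, and Hoxd8 was the highest Hox gene in 6 of 6 libraries. Hoxd9, its neighbour on the posterior side, had control values of 0.74, 0.46 and 0.83 FPKM and cKO values of 1.28, 0.46 and 0.98 FPKM. It stood just under the limit of a mean of 1, at 0.792, and Hoxd8 exceeded it between 8.24-fold and 14.6-fold within a library. Hoxd10, the next gene, which patterns the limb and the lower trunk, was listed at 0 in 5 libraries and at 0.03 in cKO replicate 3. The annotated start sites of Hoxd8 and Hoxd9 lie 6852 bases apart, and those of Hoxd9 and Hoxd10 5872 bases apart. The level thus went from the highest of all Hox genes to listed values of 0 within 12724 bases.

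The promoters of these neighbours are shown because the level changes across them. Each is the RefSeq window of GRCm38.p6 from 250 bases before to 50 bases after the annotated start on the plus strand, with every CG dinucleotide in capitals. The windows are chr2:74704365-74704664 for Hoxd8, chr2:74697513-74697812 for Hoxd9 and chr2:74691641-74691940 for Hoxd10.
Hoxd8: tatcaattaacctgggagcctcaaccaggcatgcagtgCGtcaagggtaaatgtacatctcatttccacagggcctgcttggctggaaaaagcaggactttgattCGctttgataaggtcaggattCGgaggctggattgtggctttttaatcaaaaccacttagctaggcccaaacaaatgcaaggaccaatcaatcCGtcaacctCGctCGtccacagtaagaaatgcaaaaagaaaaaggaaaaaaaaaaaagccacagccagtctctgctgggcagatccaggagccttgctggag
Hoxd9: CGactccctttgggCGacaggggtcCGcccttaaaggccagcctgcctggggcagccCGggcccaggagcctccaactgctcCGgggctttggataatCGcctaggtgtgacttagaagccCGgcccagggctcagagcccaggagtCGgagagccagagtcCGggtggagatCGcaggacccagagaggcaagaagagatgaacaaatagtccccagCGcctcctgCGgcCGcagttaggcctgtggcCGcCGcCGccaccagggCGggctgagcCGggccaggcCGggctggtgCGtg
Hoxd10: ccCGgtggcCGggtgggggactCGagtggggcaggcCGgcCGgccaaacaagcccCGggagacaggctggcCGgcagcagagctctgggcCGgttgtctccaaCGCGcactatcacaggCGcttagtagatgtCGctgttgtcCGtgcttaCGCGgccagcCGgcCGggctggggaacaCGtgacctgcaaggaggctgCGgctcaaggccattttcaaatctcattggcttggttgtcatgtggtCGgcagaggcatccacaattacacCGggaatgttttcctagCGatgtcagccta
The Hoxd8 window held 6 CG dinucleotides and a G + C content of 46.7%, against 20 and 68.3% for Hoxd9 and 22 and 62.7% for Hoxd10. The median of all 32851 promoter windows was 7 CG dinucleotides, and the 24 windows of 22 Hox genes ranged from 4 to 45 with a median of 14.5. The highest member therefore had a window with few CG dinucleotides for a Hox gene, while Hoxd10, at or near 0, had a CG-rich one. This order did not extend to the other genes of the cluster, as Hoxd3 and Hoxd4, which had similar levels, held 20 and 4.

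Toward the anterior side of the same cluster, Hoxd3 and Hoxd4, which shape the upper neck vertebrae, had similar levels. The FPKM of Hoxd3 was 1.14, 0.55 and 2.14 across control replicates 1, 2 and 3, and 1.06, 0.91 and 2.52 in cKO replicates 1, 2 and 3. That of Hoxd4 was 1.13, 0.66 and 1.87 in controls and 1.29, 0.68 and 2.26 in cKO libraries. Neither stood clearly above the other, as Hoxd3 was higher than Hoxd4 in 4 of 6 libraries. The genes share 388 exonic bases on the same strand in GENCODE M21, 9.26% of those of Hoxd3 and 13.2% of those of Hoxd4. A protein-coding model on the same strand, Gm28230, covers far more, 53.1% of the exonic bases of Hoxd3 and 39.2% of those of Hoxd4, and was not analysed here. The assignment of reads to Hoxd3 and Hoxd4 is therefore uncertain. Hoxd1, the most anterior gene of the cluster, ranged from 0.13 to 0.33 and was lower than Hoxd3 in every library.

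The Hoxb cluster, on chromosome 11 from 96194316 to 96368256 on the plus strand, had its highest levels in its low-numbered members. It has 10 annotated genes, of which 6 were analysed here, and Hoxb1 at the anterior end was not among them. Hoxb2, a regulator of hindbrain segments and of the crest that leaves them, had an FPKM of 3.13, 2.88 and 4.43 in control replicates 1, 2 and 3. The cKO libraries followed at 6.13, 2.76 and 5.97, so the cKO group held both the highest and the lowest library. Hoxb2 was the second highest Hox gene in 5 of 6 libraries, and Hoxd8 was between 1.79-fold and 2.43-fold higher within a library. Hoxb3, which acts in the hindbrain and the third pharyngeal arch, had an FPKM of 1.72, 2.02 and 3.85 in controls and 2.87, 1.17 and 3.63 in cKO libraries. The next gene, Hoxb4, ranged from 0.23 to 0.79, and Hoxb3 exceeded it between 3.63-fold and 6.31-fold. Hoxb5, Hoxb7 and Hoxb9 stayed at or under 0.07 in every library. Antisense transcripts complicate this cluster, since the noncoding Hoxb3os covers 52.9% of the exonic bases of Hoxb3 and 27.3% of those of Hoxb2 on the opposite strand. Whether reads were counted by strand is not given in the sources used here, so the levels of Hoxb2 and Hoxb3 may include antisense reads.

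The Hoxa cluster, on chromosome 6 from 52155590 to 52260880 on the minus strand, had its highest level at Hoxa2, the gene that gives the second pharyngeal arch its identity and restrains skeletal formation there. The FPKM of Hoxa2 was 2.33, 1.78 and 3.09 across control replicates 1, 2 and 3, and 2.65, 2.79 and 3.64 in cKO replicates 1, 2 and 3. Its level could not be ordered against that of Hoxb3, which was the higher of the pair in 3 of 6 libraries. Hoxa3, needed for organs of the third arch such as the thymus, had an FPKM of 1, 1.03 and 1.09 in controls and 1.21, 0.62 and 1.37 in cKO libraries. Its controls were close together while the cKO libraries lay on either side of them. Hoxa3 was the lowest member above the limit, with a mean of 1.05. Hoxa4 ranged from 0.12 to 0.68 and Hoxa5 from 0.07 to 0.52. Hoxa11, a gene of the forearm, lower leg and kidney, was listed at 0 in 5 libraries and at 0.03 in control replicate 3. A protein-coding model on the same strand, Gm28308, covers 15.0% of the exonic bases of Hoxa2 and 8.02% of those of Hoxa3. Opposite-strand models overlap Hoxa3 and Hoxa4, and Gm29430 covers 16.0% of the exonic bases of Hoxa4. The assignment of reads to these genes is therefore uncertain as well.

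The window of Hoxa2 is shown for the motifs it holds. It lies at chr6:52164782-52165081 on the minus strand of GRCm38.p6 and is printed 5′ to 3′, with matches in capitals.
Hoxa2: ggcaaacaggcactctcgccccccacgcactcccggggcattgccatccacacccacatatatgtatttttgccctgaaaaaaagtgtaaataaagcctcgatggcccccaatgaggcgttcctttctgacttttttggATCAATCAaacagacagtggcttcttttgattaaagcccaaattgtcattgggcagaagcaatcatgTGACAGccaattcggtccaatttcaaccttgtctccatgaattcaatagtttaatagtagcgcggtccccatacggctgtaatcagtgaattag
The search covered TGATNNAT, the form of element bound by Pbx and Hox proteins together, and TGACAG, the core bound by Meis proteins, on both strands. It also covered AGGTCA repeated in the same direction after a gap of 5 bases, the kind of spaced half-sites bound by retinoic acid receptors. The Hoxa2 window had a match to TGATNNAT on the minus strand of the window and a match to TGACAG on its plus strand, which do not overlap. Across all 32851 windows, TGATNNAT was found in 8.85%, TGACAG in 19.2% and the spaced half-sites in 0.00913%. Of the 12 members with a window, 1 (Hoxa2) held TGATNNAT, 2 (Hoxa2 and Hoxa3) held TGACAG and 0 held the spaced half-sites. Windows for Hoxb2 and Hoxb3 were not in the reference table used.

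The Hoxc cluster, on chromosome 15 from 102921103 to 103036852, has 9 annotated genes, of which 3 were analysed here. These 3 members, Hoxc4, Hoxc6 and Hoxc13, were close to 0 in every library. They summed to 0.14, 0 and 0.03 in control replicates 1, 2 and 3 and to 0.03, 0.08 and 0 in cKO replicates. Hoxc13, known from hair follicles and nails, was above 0 only in cKO replicate 2, at 0.05, and Hoxc6 only in control replicate 1, at 0.04. Hoxc4 and Hoxc6 belong to the neck and chest region. Across the 8 members with a mean under 0.1, 18 of the 48 values were above 0, and these ran from 0.02 to 0.1. The 4 values above 0 of Hoxb7 were all listed at 0.05.

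The low level of the Hoxc members was not shared by the genes beside the cluster. Calcoco1 and Smug1, the nearest protein-coding genes outside the Hoxc cluster, had mean FPKM values of 22.7 and 3.72. Mtx2 and Skap2, beside the anterior ends of Hoxd and Hoxa, had 41.9 and 19.4, above every Hox gene, while Skap1 beside the anterior end of Hoxb had 0.0150.

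**Figure D2:**
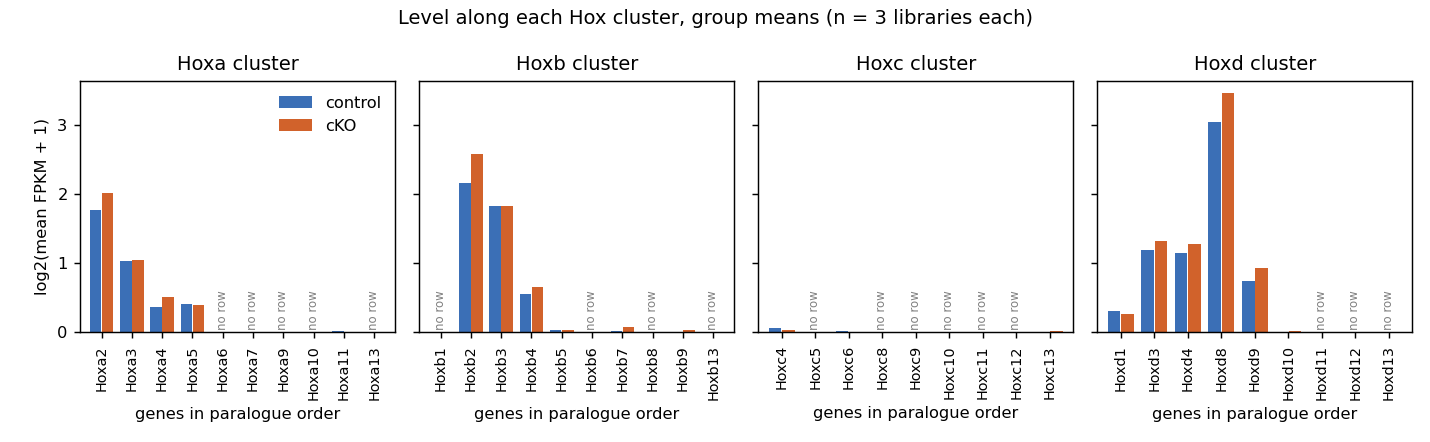
Mean level of Hox genes on the log2(mean FPKM + 1) scale, with the genes of each cluster in paralogue order along the horizontal axis and bars for control (blue) and cKO (orange) libraries, 3 each. Hoxa and Hoxb reach their highest bars at paralogue 2, Hoxd at paralogue 8, and Hoxc shows almost none.

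The summed FPKM of the 21 members differed between libraries more than between groups. Control replicates 1, 2 and 3 reached 19.3, 16.3 and 29.8, and cKO replicates 1, 2 and 3 reached 31.9, 17.5 and 34.0. The group means were 21.8 ± 7.11 for control and 27.8 ± 8.97 for cKO (SD, n = 3 each), so the groups overlapped. Control replicate 3 and cKO replicates 1 and 3 were high, and control replicates 1 and 2 and cKO replicate 2 were low. The same libraries were high and low for the sums of the Hoxa, Hoxb and Hoxd clusters taken separately. The Hoxb sum was 5.32, 5.27 and 8.98 in controls and 9.88, 4.23 and 10.4 in cKO libraries, and the Hoxd sum was 9.31, 7.19 and 15.4 in controls and 16.4, 8.89 and 16.7 in cKO libraries. Without Hoxd8 the total still ranged from 10.8 to 23.4, and its highest value was 2.16 times its lowest. In bulk RNA, a larger share of Hox-expressing cells and more Hox RNA per cell cannot be told apart.

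Single members moved with these sums. Of the 13 members above 0 in every library, 11 had a higher FPKM in control replicate 3 than in control replicates 1 and 2, and 12 had a lower FPKM in cKO replicate 2 than in cKO replicates 1 and 3. The exceptions were Hoxa4 and Hoxa5 among the controls and Hoxa2 among the cKO libraries. Hoxa4 was level at 0.38 in control replicates 2 and 3.

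The high libraries were also those with RNA from the Y chromosome. The FPKM of Ddx3y, a Y-linked RNA helicase, was 0, 0.06 and 17.27 across control replicates 1, 2 and 3 and 17.33, 0 and 15.65 in cKO replicates 1, 2 and 3. The 4 Y-linked genes examined summed to between 49.6 and 54.7 in the high libraries and to between 0.01 and 0.29 in the low ones. The list of trunk, limb and somite mesenchyme markers, with 11 of 12 genes in the table, was set beside them. It summed to 46.8, 43.6 and 56.5 in controls and 56.4, 51.4 and 55.1 in cKO libraries, with the high Hox libraries above the low ones over a smaller range. Most of this sum came from Tbx15, at 20.23 to 29.44, and Meox2, at 11.55 to 19.08. Other genes of the list did not follow the Hox sums, since Meox1 at 2.1, Pax1 at 1.42 and Pitx1 at 1.31 were highest in cKO replicate 2, a low Hox library. The limb gene Tbx5 was listed at 0 in 5 libraries and at 0.02 in cKO replicate 3. Other members of the list, Tbx4 at 0.31 to 0.56 and Lmx1b at 2.03 to 3.41, were above 0 in every library. The part of the Y-linked genes and of these markers in the Hox levels was not tested.

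**Figure D3:**
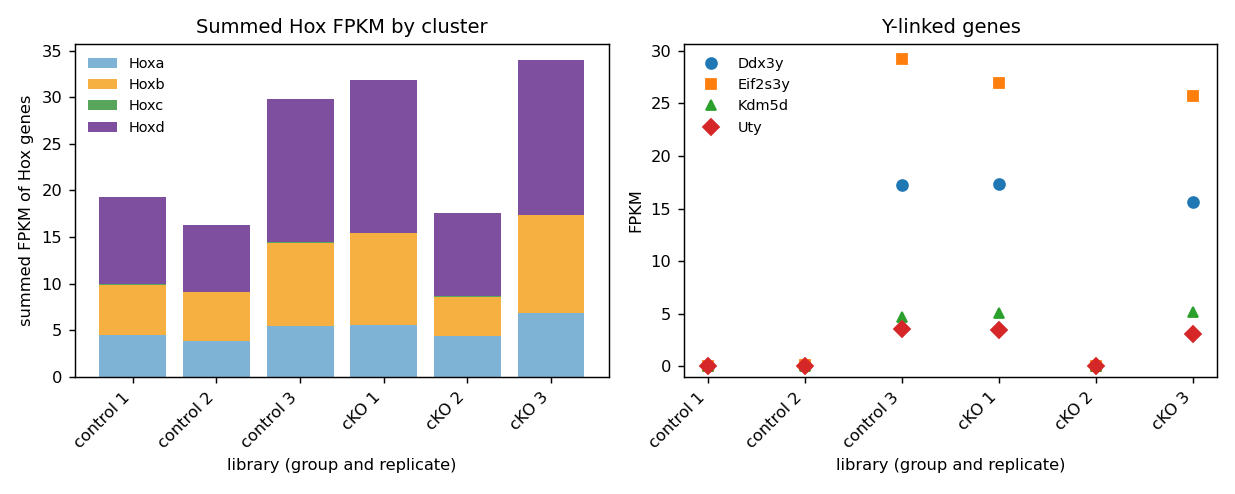
Left, summed FPKM of the Hox genes in each of the 6 libraries, stacked by cluster; right, FPKM of the Y-linked genes Ddx3y, Eif2s3y, Kdm5d and Uty in the same libraries. Control replicate 3 and cKO replicates 1 and 3 have Hox sums of 29.8, 31.9 and 34.0 and are the libraries in which the Y-linked genes lie above 3.

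Other marker lists were set beside the Hox sums in the same way. The 6 endothelial markers summed to 1.97 to 4.06 in control and 1.94 to 3.59 in cKO libraries. The 7 macrophage and blood markers in the table summed to 30.6 to 82.7 and 40.9 to 66.0, most of it from Lyz2. The 6 muscle markers in the table summed to 29.8 to 55.04 and 40.6 to 47.0, the 6 cartilage markers to 99.2 to 168 and 154 to 179, and the 7 neural and glial markers to 11.4 to 14.8 and 11.4 to 18. The 6 epithelial markers summed to 0.46 to 13.4 in control and 18.2 to 42.7 in cKO libraries and so did not overlap between the groups. The endothelial, the macrophage and blood and the muscle lists were highest in control replicate 3, a high Hox library. In these lists cKO replicate 1, also high for Hox, lay below cKO replicate 2. The epithelial list was highest in cKO replicate 1, the neural and glial list in cKO replicate 3 and the cartilage list in cKO replicate 2, a low Hox library. Their part in the Hox levels was not tested.

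No Hox gene passed the test between libraries labelled cKO and control, in which Nell2 itself was not lower under the cKO label. Log2(FPKM + 1) values were compared with limma over the 11590 rows that reached an FPKM of 1 in 3 or more libraries, and 7 of the 21 members were among them. After Benjamini-Hochberg adjustment of the limma p-values, 0 of the 7 were under 0.05, against 0% of all tested rows. At an unadjusted p-value under 0.05, 0 of the 7 passed, against 13.1% of all tested rows. The values of the groups did not overlap in 0 of the 7, against 18.3% of all tested rows. The log2 fold change was above 0 in 5 of the 7 members, against 44.2% of all tested rows, with a median of 0.14 beside -0.02 for all tested rows.

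The largest estimate was that of Hoxd8. Its FPKM was 7.21 ± 2.63 in control and 9.98 ± 2.99 in cKO libraries (SD, n = 3 each), and limma estimated a log2 fold change of 0.43 with a standard error of 0.27 and an adjusted p of 0.523. The 95% interval ran from -0.22 to 1.07 on the log2(FPKM + 1) scale, so both no change and a log2 difference of 1 lay within it. For Hoxb2 the estimate was 0.37 with a standard error of 0.26 and a limma adjusted p of 0.564, from 3.48 ± 0.832 to 4.95 ± 1.90 (SD, n = 3 each), with an interval from -0.25 to 0.99. For Hoxa2 it was 0.25 with a standard error of 0.16 and a limma adjusted p of 0.510, from 2.40 ± 0.658 to 3.03 ± 0.536 (SD, n = 3 each), with an interval from -0.12 to 0.63. The narrowest interval on this scale was that of Hoxa3, from -0.33 to 0.33 around a log2 fold change of -1.8e-05. This width depends on the 1 added before the log. With 0.1 added instead, the standard error of Hoxa3 was 0.26 in place of 0.14, and that of Hoxa2, 0.21, was the smallest. Hoxb3 had -0.01 with an interval from -0.78 to 0.75, Hoxd3 0.14 with -0.61 to 0.88, and Hoxd4 0.10 with -0.56 to 0.76. For Hoxb3, Hoxd3 and Hoxd4 a log2 difference of 0.5 in either direction lay within the interval on the log2(FPKM + 1) scale.

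The estimate for Hoxd8 was larger without the low cKO or the high control library and smaller without any of the other 4. Without cKO replicate 2 the log2 fold change of Hoxd8 was 0.66 (adjusted p = 0.596 from limma), and without control replicate 3 it was 0.67 (adjusted p = 0.320 from limma). With cKO replicate 1, cKO replicate 3 or either of the other controls left out it was 0.25 to 0.36. That of Hoxb2 was 0.67 without cKO replicate 2 (adjusted p = 0.596 from limma) and 0.21 without cKO replicate 1. That of Hoxa2 was 0.40 without control replicate 3 (adjusted p = 0.318 from limma) and 0.12 to 0.32 without another library. With the log2(FPKM + 1) value of Ddx3y as a covariate, an alternative chosen after seeing the data, the standard error of Hoxd8 was 0.09 in place of 0.27 and that of Hoxb3 0.11 in place of 0.32. The log2 fold change was then 0.19 for Hoxd8 (adjusted p = 0.519 from limma), 0.15 for Hoxb2 (adjusted p = 0.651) and -0.29 for Hoxb3 (adjusted p = 0.463, unadjusted p = 0.0409).

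**Figure D4:**
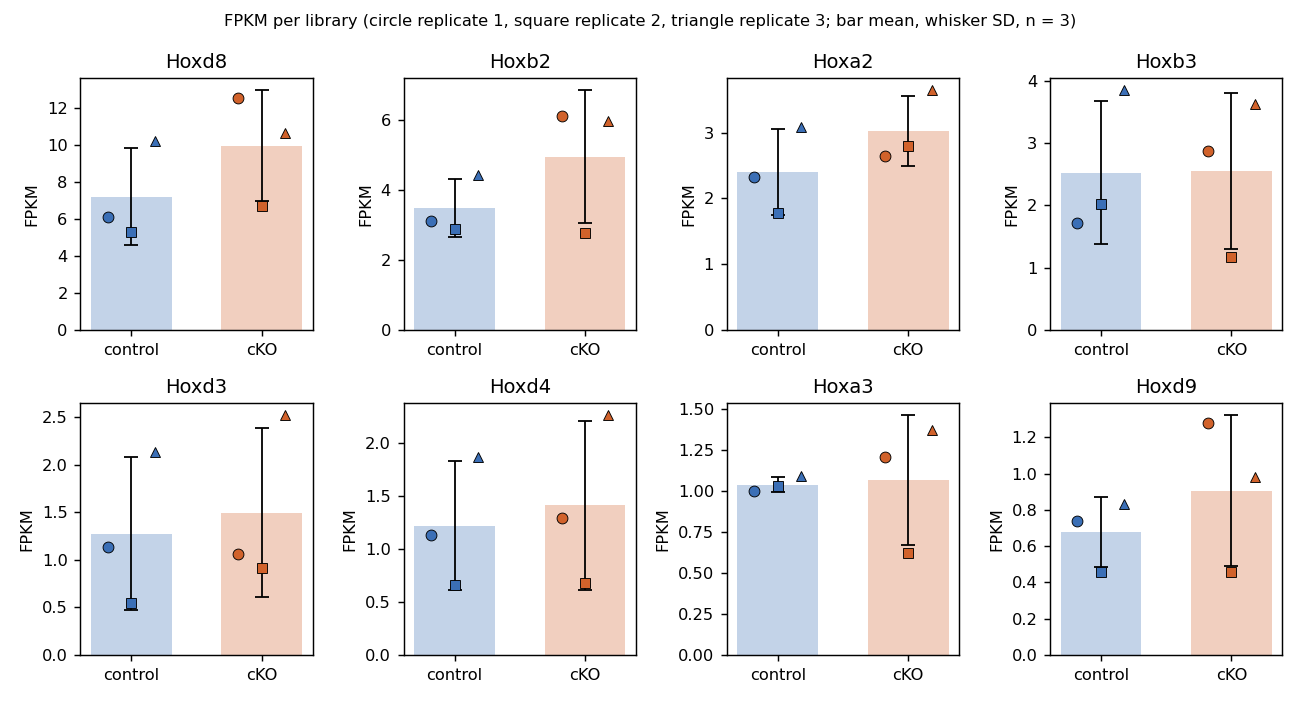
FPKM of the 7 Hox genes with a mean of at least 1 and of Hoxd9, just below it, with a panel for each gene, symbols for replicates 1 (circle), 2 (square) and 3 (triangle), bars for the mean and whiskers for the SD of 3 libraries. In each panel the control and cKO symbols overlap, and the square of the cKO group is its lowest symbol in all panels but that of Hoxa2.

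**Figure D5:**
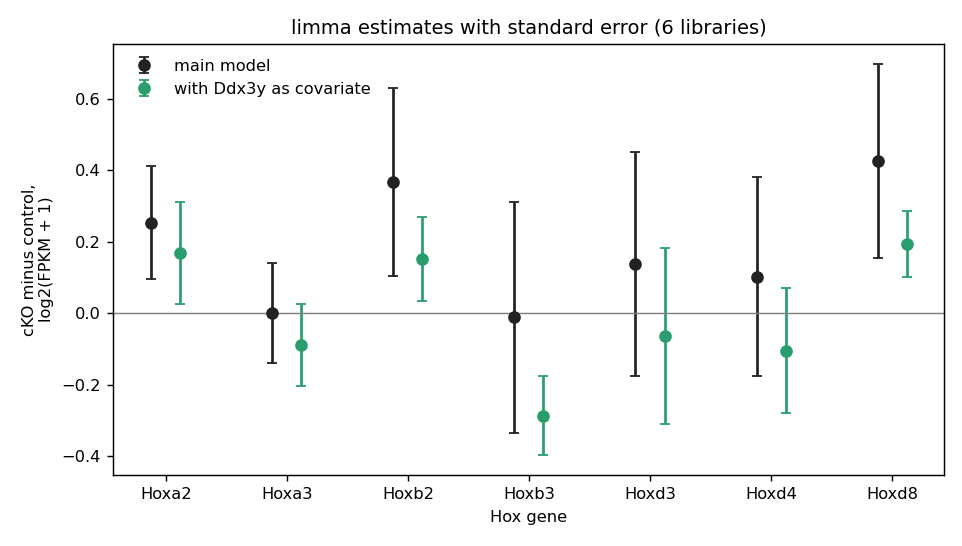
Log2 fold change of cKO against control with its standard error from limma for the 7 tested Hox genes, without a covariate (black) and with Ddx3y as a covariate (green), over 6 libraries. The black error bars are longer than the green ones for each gene, and the point of Hoxb3 moves from -0.01 to -0.29.

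The 14 members that did not pass the filter were given no test in this comparison. Hoxd9, the nearest to the filter by mean, overlapped between the groups, at 0.677 ± 0.193 in control and 0.907 ± 0.415 in cKO libraries (SD, n = 3 each), as did Hoxb4, at 0.470 ± 0.187 and 0.577 ± 0.303 (SD, n = 3 each).

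Most genes listed as working with or upstream of Hox genes were present at higher levels than most Hox genes, and none gave an adjusted call. The TALE homeodomain proteins, which bind DNA together with Hox proteins, had 9 of 9 genes in the table and 8 tested. Meis3 was the highest, with a mean FPKM of 17.1, followed by Meis1 at 14.8. Of the 8, 5 had a log2 fold change above 0 and the median was 0.23. With limma, 0 passed the adjusted threshold and 2 (against 13.1% of all tested rows) had an unadjusted p under 0.05, among them Pknox2 at a log2 fold change of 0.45 (adjusted p = 0.317). Meis1 did not follow the Hox sums, since its highest value, 20.88, was in cKO replicate 2.

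The Polycomb proteins, which keep Hox genes silent, had 22 of 23 genes tested, with Rbbp7 the highest at a mean FPKM of 111. Of the 22, 8 were above 0 and 14 below in log2 fold change, and the median was -0.06. In limma 0 passed the adjusted threshold, and 4 had an unadjusted p under 0.05, against 13.1% of all tested rows. Among these were Pcgf2 at 0.20, Rbbp7 at -0.24 and Phf19 at -0.38, with adjusted p-values between 0.312 and 0.343. The Trithorax proteins and histone demethylases that keep Hox genes active had 10 of 10 tested, 0 with an adjusted or unadjusted p under 0.05 in limma, and a median of -0.05.

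Regulators known to set the onset of Hox expression had 12 of 14 genes in the table and 9 tested, 8 of them with a log2 fold change above 0 and a median of 0.12. In limma 0 passed the adjusted threshold, and 2 had an unadjusted p under 0.05, against 13.1% of all tested rows. Among these was Egr2, a hindbrain segment regulator that is also used in other cells, at 0.27 with an adjusted p of 0.312. Cyp26a1, which breaks down retinoic acid, had an FPKM of 1.42, 1.01 and 1.92 in controls and 3.41, 1.39 and 2.32 in cKO libraries. Its high libraries were the high libraries of the Hox sums. Rarg, a retinoic acid receptor, was the highest of this list at a mean of 46.4, and its lowest library was control replicate 3. The list also held low genes, down to a mean FPKM of 0.118.

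The homeobox genes used in the head skeleton outside the Hox clusters were far more abundant. All 18 genes of this list were in the table, and their summed FPKM was between 12.1 and 33.3 times the Hox sum of the same library. Prrx2 and Prrx1 led with mean FPKM values of 180 and 145, and Msx2 followed at 34.4. Among the 12 tested, 5 had an unadjusted p under 0.05, against 13.1% of all tested rows. All 5 had a log2 fold change below 0, and 0 passed the adjusted threshold in limma. Msx1 was at -0.68 and Alx4 at -0.40, each with an adjusted p of 0.312. The 7 tested Hox genes had 0 unadjusted calls, but the difference between the lists was not tested.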

How the data were processed

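RNA of 6 libraries, 3 control and 3 cKO, was sequenced as 150 bp paired-end reads. The authors mapped them with HISAT2, and the submitters' processing notes name GRCm38. The deposited values are FPKM, with 1 row per gene symbol and 2 decimals. The paper's DESeq normalization is not carried by FPKM, and the annotation release and strand setting are not given in the sources used here. Read depth is not carried either. In rows at 0 in several libraries, low values gave relative depths of 0.944 to 1 from 10 to 17 rows, which is rough. Only ratios near 1 were kept for this, so a large difference in depth could not have shown.

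Hox rows were described as deposited. The rows that reached 1 FPKM in 3 or more libraries were fitted together on log2(FPKM + 1) with limma 3.58.1 in R 4.3.3 (lmFit, eBayes, Benjamini-Hochberg adjustment). The script was tested on simulated data. Fold changes on this scale understate those of low genes. Positions came from GENCODE M21 and promoters from RefSeq, for 12 of the 21 members.

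Values in every library are given for members with a mean FPKM of at least 1, those that passed the filter and those next to these limits. Hoxc genes and the neighbouring genes in the text were named after their values were seen. A few members and list genes are not reported by name here. The members and lists were chosen with earlier results of these data known. Alternatives were the pseudocount, filter, variance trend, scaling, replicate block, a Ddx3y covariate and each library left out.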

Additional observations from a re-analysis of the deposited data

How the results depend on the processing

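FPKM hides depth, so how far the low Hox values reflect counting error is unknown, and 3 libraries a group leave wide intervals. The number of Hox genes with an adjusted p under 0.05 in limma was 0 under all alternatives run, those with 1 library left out included. Over all rows it was 334 of 11522 without cKO replicate 1, 2 of 11484 without control replicate 3, and 0 under the other alternatives. The number with an unadjusted p under 0.05 was 0, and it was 1 with the filter at an FPKM of 0.1 and 1 without a filter, 1 with the replicate block (Hoxa2) and 1 with Ddx3y as a covariate (Hoxb3). It was 0 to 2 with 1 library left out, Hoxa2 and Hoxd8 without control replicate 3 and Hoxb2 and Hoxd8 without cKO replicate 2. The filter settings test more genes, and the cause of the other changes was not tested. Over all rows, 1710 of 14101 had an unadjusted limma p under 0.05 with the filter at 0.1, and 1997 of 16990 without a filter. The replicate block gave 1465 of 11590 and the Ddx3y covariate 1213 of 11590. The number was 1586 of 11484 without control replicate 3 and 956 of 11491 without cKO replicate 2. Hox genes with a mean FPKM at or above the limit numbered 7, and 13 with the limit at 0.1, which admits more genes by construction. With 1 library left out they numbered 6 to 7.

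Estimates near 0 changed sign. Scaling to the same median gave 0.0016 for Hoxb3 and 0.0094 for Hoxa3, and the Ddx3y covariate gave -0.064 for Hoxd3 and -0.11 for Hoxd4. With 1 library left out the log2 fold change ran from -0.24 to 0.31 for Hoxb3, from -0.11 to 0.17 for Hoxa3, from -0.14 to 0.40 for Hoxd3 and from -0.14 to 0.34 for Hoxd4. Hoxd8, Hoxb2 and Hoxa2 stayed above 0 under every alternative run. Cluster sums and shares were computed again only with scaling to the same median and with 1 library left out. Scaling cannot change a share within a library. Leaving out 1 library moves a mean by less than its SD by construction, so these runs do not test the sums and shares. With 1 library left out the share of Hoxd ran from 48.8% to 50.2% and that of Hoxb from 28.7% to 30.4%.

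The deviations of same-numbered control and cKO libraries correlated at 0.0314, -0.166 and 0.21, and control replicate 2 correlated most with cKO replicate 1, at 0.275. With 3 libraries a group these correlations cannot decide whether same-numbered libraries belong together. The replicate block changed no adjusted call, but the standard error of every tested Hox gene was smaller with it. It was 0.09 in place of 0.31 for Hoxd3, 0.08 in place of 0.28 for Hoxd4 and 0.18 in place of 0.27 for Hoxd8.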
